A study of Mus musculus with 12 samples.

Results

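The genes described here are 41 interferon-stimulated antiviral genes, a list that covers nucleic acid sensors, the OAS, IFIT and MX families, the ISG15 system, transcription regulators, RNA and nucleotide enzymes, membrane restriction factors and TRIM proteins. A gene was taken as measured where a probe set of the array was annotated with that gene alone, by its symbol or an older synonym, and it was read from 1 probe set, the one with the highest mean log2 intensity. This gave 34 measured genes among the 12393 genes of the array. Isg15 and Ifi203 were present only in probe sets shared with other genes, and Ddx58, Herc6, Dtx3l, Xaf1 and Ifi44 had no probe set named for them; these 7 were not analysed here.

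The study asked how Dusp1, a phosphatase that switches off MAP kinases, controls the response to lipopolysaccharide (LPS), the endotoxin of Gram-negative bacteria. Spleen RNA was measured on 12 Affymetrix arrays, 1 array per mouse, in 4 groups of 3 mice. The groups were DUSP1-/- mice killed 6 h after an intraperitoneal dose of 10 µg E. coli LPS per g of body weight, untreated DUSP1-/- controls, DUSP1+/+ mice given the same LPS, and untreated DUSP1+/+ controls. The controls had no treatment, so an injection without LPS was not part of the design, and the labels give no strain, age or sex. Values are the authors' RMA intensities on a linear scale, differences are on the log2 scale with limma's standard error after ±, and a gene was called where its Benjamini-Hochberg adjusted p over all 22626 probe sets was under 0.05.

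Interferons are secreted proteins that cells make when sensors such as Toll-like receptors or cytosolic RNA receptors detect microbes. Type I interferons bind one receptor, whose kinases phosphorylate STAT proteins, and a complex of STATs with Irf9 binds the interferon-stimulated response element (ISRE) in promoters and switches on antiviral genes. LPS reaches this pathway through Toll-like receptor signalling that induces interferon-β, and the spleen holds macrophages, dendritic cells and lymphocytes that can make or answer interferon.

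The ISRE letters themselves can be read in the promoters of these genes. RefSeq promoter windows on GRCm38.p6, running from 250 bases before to 50 after a start site, were found for 31 of the 41 genes. The letters GAAANNGAAA, or TTTCNNTTTC on the other strand, stood in the windows of 15 of these 31 genes (48.4%), against 1064 of the 26994 other genes with a window (3.94%). The letters of the interferon-γ activated site, TTCNNNGAA, which reads the same on both strands, stood in 10 of the 31 (32.3%), against 9.53% of the other genes. Both motifs were counted on both strands, and overlapping matches counted separately. Stretches of 60 bases around the ISRE letters are shown for 6 measured genes whose letters lie upstream of the start site, since they show how the arrangement varies between genes; capitals mark the ISRE letters, and each stretch runs 5′ to 3′ on the gene's own strand.
Ifit1: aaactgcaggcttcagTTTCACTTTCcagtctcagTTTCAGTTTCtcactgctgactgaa
Ifit3: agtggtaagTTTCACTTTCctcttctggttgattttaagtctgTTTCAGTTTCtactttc
Oas3: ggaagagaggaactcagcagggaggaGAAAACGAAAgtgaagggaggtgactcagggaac
Rsad2: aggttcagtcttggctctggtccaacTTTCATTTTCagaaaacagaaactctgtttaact
Bst2: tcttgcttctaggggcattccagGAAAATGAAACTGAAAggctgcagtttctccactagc
Stat2: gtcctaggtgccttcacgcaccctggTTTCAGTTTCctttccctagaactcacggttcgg

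The Ifit1 stretch is chr19:34640769-34640828 on the plus strand, and its matches begin at -104 and -85 relative to the start site. The Ifit3 stretch is chr19:34583364-34583423 on the plus strand, with matches at -156 and -122. Each of these genes therefore holds separate matches, whereas the Bst2 matches, at -130 and -124 in chr8:71537566-71537625 on the minus strand, overlap. The Oas3 stretch is chr5:120777701-120777760 on the minus strand with 1 match at -75. The Rsad2 stretch is chr12:26456539-26456598 on the minus strand with 1 match at -120, and the Stat2 stretch is chr10:128270250-128270309 on the plus strand with 1 match at -222. The upstream 250 bases of Oasl1, chr5:114922990-114923239 on the plus strand, are shown beside them because Oasl1 had the largest LPS difference of the list in DUSP1+/+ spleen and its window holds no match to the ISRE letters.
Oasl1: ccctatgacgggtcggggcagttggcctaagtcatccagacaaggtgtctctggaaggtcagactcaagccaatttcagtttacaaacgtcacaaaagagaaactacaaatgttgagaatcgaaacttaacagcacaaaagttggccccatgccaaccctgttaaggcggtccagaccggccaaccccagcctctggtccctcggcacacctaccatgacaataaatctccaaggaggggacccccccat

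Among the 24 measured genes with a window, 12 held the ISRE letters. In DUSP1-/- spleen 8 of the 12 with the letters and 9 of the 12 without them rose after LPS, against 5.54% of all genes. Their median log2 differences were 2.19 and 2.11. In DUSP1+/+ spleen 7 of the 12 with the letters and 6 of the 12 without them rose, against 3.93% of all genes, with medians of 2.08 and 1.56. A match is a description of these letters in this window.

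Some arrays stood apart before any comparison. Pancreas markers had a mean log2 intensity of 11.8 in DUSP1-/- control 1, 8.88 in DUSP1-/- control 3 and 12.9 in DUSP1+/+ control 1, and at most 5.50 in the other arrays. Lung markers averaged 7.42 and 6.59 in DUSP1-/- LPS 1 and 3 and 7.52 and 7.18 in DUSP1-/- controls 2 and 3, and at most 5.72 elsewhere. Markers of red cell precursors averaged 11.2 in DUSP1-/- control 1 and 10.2 in DUSP1+/+ control 2, and at most 8.46 elsewhere. Liver markers ranged from 4.70 to 10.6 over the 12 arrays. Xist was at 35 and 47 in DUSP1+/+ controls 2 and 3 and at 1101 or above in the other arrays. Of the written markers 8 of 10 (pancreas), 6 of 6 (lung), 7 of 9 (red cell precursors) and 6 of 8 (liver) were measured. Markers of B cells averaged 8.09 to 10.0 and markers of T cells 6.72 to 8.84 over the 12 arrays. The Dusp1 probe set was at 4963, 2948 and 4996 in DUSP1-/- LPS arrays, 677, 1528 and 1443 in DUSP1-/- controls, 2248, 2142 and 2116 in DUSP1+/+ LPS arrays and 479, 1354 and 627 in DUSP1+/+ controls. The arrays labelled DUSP1-/- were not lower, so this probe set gave no check of the genotype labels, and every genotype direction below rests on the labels.

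After LPS, most of the list rose in both genotypes and none of it fell. In DUSP1-/- spleen 26 of the 34 genes rose, against 5.54% of all genes, and 0 fell, against 9.71% of all genes, with a median log2 difference of 2.50 against -0.06 over all genes. In DUSP1+/+ spleen 21 of 34 rose, against 3.93% of all genes, and 0 fell, against 4.16% of all genes, with a median of 2.10 against -0.03. The arrays after LPS all lay above their controls for 29 genes in DUSP1-/- spleen (11.3% of all genes) and for 27 in DUSP1+/+ spleen (10.2% of all genes). All 21 genes called in DUSP1+/+ spleen were also called in DUSP1-/- spleen. A further 5 genes, Cmpk2, Ifi204, Ifitm3, Samhd1 and Sp100, were called in DUSP1-/- spleen alone, and for none of them did the test of the difference between the responses pass. The remaining 8 genes, Eif2ak2, Ifi202b, Ifi27l2a, Isg20, Rsad2, Trim21, Trim25 and Trim30a, were called in neither. In bulk spleen RNA, more RNA per cell and more cells of a type that expresses a gene cannot be told apart.

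**Figure D1:**
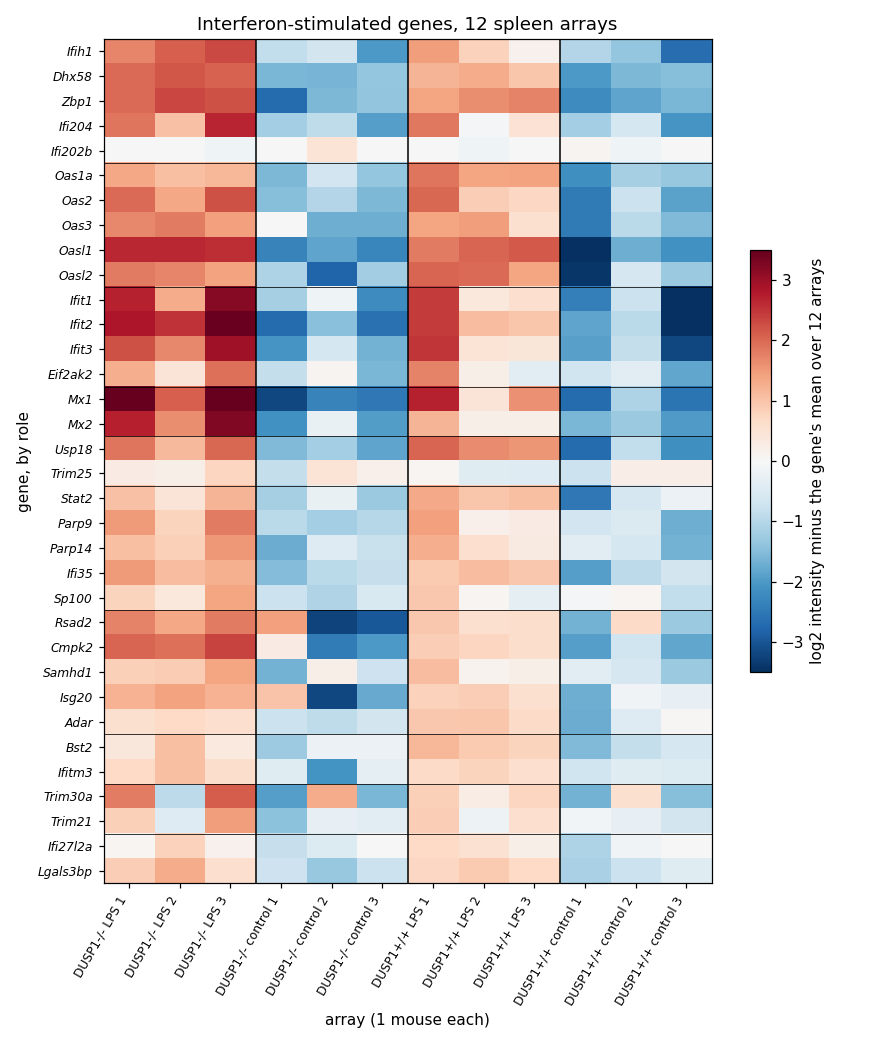
Log2 intensity of each of the 34 measured genes (rows, by role) on each of the 12 spleen arrays (columns, 1 mouse each), after subtracting the gene's own mean over the 12 arrays; black lines separate roles and groups. Most rows are above their mean on the LPS arrays of both genotypes. Exceptions include Trim25, at 1069 and 1040 in DUSP1+/+ LPS 2 and 3, and Trim30a, at 419 in DUSP1-/- LPS 2. Rsad2 and Isg20 were also high in DUSP1-/- control 1, and Ifi202b lay between 11 and 17 on every array.

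Of the 5 measured sensors of foreign RNA and DNA, 4 rose in DUSP1-/- spleen and 3 in DUSP1+/+ spleen. Dhx58, which encodes LGP2, a helicase that regulates cytosolic RNA sensing, was at 1638, 1868 and 1753 in DUSP1-/- LPS arrays, against 138, 135 and 163 in DUSP1-/- controls. It was at 945, 1020 and 819 in DUSP1+/+ LPS arrays, against 103, 140 and 149 in DUSP1+/+ controls. In each genotype every LPS array was several times its highest control, and replicates lay close together. The rise was 3.60 ± 0.18 in DUSP1-/- spleen (adjusted p = 2.85e-06, higher in 3 of 3 mice) and 2.84 ± 0.18 in DUSP1+/+ spleen (adjusted p = 1.8e-05, higher in 3 of 3 mice). Dhx58 has 3 probe sets, of which the dimmest, at a mean intensity of 15.9, was called in neither genotype.

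Zbp1, a sensor of Z-form nucleic acids, was at 2313, 2986 and 2754 in DUSP1-/- LPS arrays and 90, 198 and 225 in DUSP1-/- controls. It was at 1524, 1812 and 1946 in DUSP1+/+ LPS arrays and 128, 162 and 193 in DUSP1+/+ controls. The LPS arrays of each genotype again stood far above the controls, and Zbp1 rose by 4.07 ± 0.31 in DUSP1-/- spleen (adjusted p = 3.68e-05) and 3.46 ± 0.31 in DUSP1+/+ spleen (adjusted p = 0.000155). Ifih1, which encodes the long double-stranded RNA sensor MDA5, was at 1508, 1968 and 2300 in DUSP1-/- LPS arrays, against 252, 292 and 114 in DUSP1-/- controls. Its values were 1273, 811 and 511 in DUSP1+/+ LPS arrays, against 225, 181 and 72 in DUSP1+/+ controls. Ifih1 rose by 3.22 ± 0.49 in DUSP1-/- spleen (adjusted p = 0.00215) and 2.50 ± 0.49 in DUSP1+/+ spleen (adjusted p = 0.0132), without overlap in either.

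Ifi204, of the same DNA-binding family as Ifi202b, was at 169, 94 and 290 in DUSP1-/- LPS arrays, against 20, 25 and 12 in DUSP1-/- controls. In DUSP1+/+ mice it was at 165, 45 and 65 after LPS, against 20, 30 and 11 in controls. No LPS array overlapped its controls, and the 3 DUSP1+/+ LPS mice spread widely. Ifi204 rose by 3.19 ± 0.56 in DUSP1-/- spleen (adjusted p = 0.0044), while its difference in DUSP1+/+ spleen was 2.06 ± 0.56 (adjusted p = 0.0546). Ifi202b, at 11 to 17 on all 12 arrays and thus near the lowest intensities measured, gives no information on its response.

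All 5 genes of the OAS family rose in both genotypes. OAS enzymes make oligoadenylates that activate RNase L, and Oasl1 is a relative known in mice to hold back translation of Irf7. Oasl1 was at 2885, 2926 and 2786 in DUSP1-/- LPS arrays, against 92, 130 and 96 in DUSP1-/- controls. In DUSP1+/+ mice it was at 1658, 1918 and 2072 after LPS, against 39, 143 and 107 in controls. Replicates after LPS lay within a factor of 1.05 in DUSP1-/- and 1.25 in DUSP1+/+ mice, and the controls of DUSP1+/+ mice spread by a factor of 3.67. Oasl1 rose by 4.77 ± 0.38 in DUSP1-/- spleen (adjusted p = 5.03e-05) and 4.48 ± 0.38 in DUSP1+/+ spleen (adjusted p = 0.000114).

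Oas1a, one of the enzymes of the family, was at 2033, 1654 and 1765 in DUSP1-/- LPS arrays, against 266, 503 and 311 in DUSP1-/- controls. It was at 2890, 2066 and 2121 in DUSP1+/+ LPS arrays, against 179, 355 and 318 in DUSP1+/+ controls. The LPS arrays of both genotypes were above all controls, and each DUSP1+/+ LPS array was above each DUSP1-/- LPS array. Oas1a rose by 2.39 ± 0.30 in DUSP1-/- spleen (adjusted p = 0.000748) and 3.10 ± 0.30 in DUSP1+/+ spleen (adjusted p = 0.000261). The other OAS genes rose by 2.78 (Oas3), 3.20 (Oas2) and 3.35 (Oasl2) in DUSP1-/- spleen and by 2.79 (Oas3), 2.89 (Oas2) and 3.57 (Oasl2) in DUSP1+/+ spleen.

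The IFIT proteins bind viral RNA ends and translation factors, and Ifit1, Ifit2 and Ifit3 rose in both genotypes. Ifit2 was at 2333, 1898 and 3609 in DUSP1-/- LPS arrays, against 50, 119 and 53 in DUSP1-/- controls. It was at 1782, 694 and 639 in DUSP1+/+ LPS arrays, against 90, 170 and 24 in DUSP1+/+ controls. All LPS arrays were above all controls, and all DUSP1-/- LPS arrays were above all DUSP1+/+ LPS arrays. Ifit2 rose by 5.21 ± 0.67 in DUSP1-/- spleen (adjusted p = 0.000829) and 3.69 ± 0.67 in DUSP1+/+ spleen (adjusted p = 0.00861).

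Ifit1 was at 2210, 839 and 3130 in DUSP1-/- LPS arrays, against 153, 308 and 74 in DUSP1-/- controls. In DUSP1+/+ mice it was at 1863, 442 and 518 after LPS, against 65, 203 and 23 in controls. Mice within each group differed up to 8.83-fold, in DUSP1+/+ controls, and the LPS arrays of the genotypes overlapped. Ifit1 rose by 3.57 ± 0.86 in DUSP1-/- spleen (adjusted p = 0.0209) and 3.49 ± 0.86 in DUSP1+/+ spleen (adjusted p = 0.0363). Ifit3 rose by 3.74 ± 0.69 in DUSP1-/- spleen and 3.11 ± 0.69 in DUSP1+/+ spleen. Eif2ak2, the double-stranded RNA kinase that blocks translation, was at 212, 121 and 334 in DUSP1-/- LPS arrays, against 50, 95 and 29 in DUSP1-/- controls. Its values were 296, 103 and 68 in DUSP1+/+ LPS arrays, against 55, 69 and 25 in DUSP1+/+ controls. The DUSP1+/+ groups overlapped, and the differences of 1.99 ± 0.63 in DUSP1-/- spleen (adjusted p = 0.0653) and 1.48 ± 0.63 in DUSP1+/+ spleen (adjusted p = 0.227) did not pass. The dimmer probe set of Eif2ak2 was called in DUSP1-/- spleen, at 2.65 ± 0.62 (adjusted p = 0.0186), and 8 of 26 alternatives called the gene there.

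The MX genes encode dynamin-like GTPases that trap viral components, with Mx1 nuclear and Mx2 cytoplasmic in mice. Mx1 was at 2825, 969 and 3273 in DUSP1-/- LPS arrays, against 25, 45 and 40 in DUSP1-/- controls. It was at 1479, 313 and 693 in DUSP1+/+ LPS arrays, against 35, 108 and 39 in DUSP1+/+ controls. DUSP1-/- LPS 2, at 969, fell within the DUSP1+/+ LPS range. Mx1 rose by 5.87 ± 0.64 in DUSP1-/- spleen (adjusted p = 0.000323), the largest difference of the list there, and by 3.70 ± 0.64 in DUSP1+/+ spleen (adjusted p = 0.00696).

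Mx2 was at 841, 395 and 1209 in DUSP1-/- LPS arrays, against 29, 107 and 33 in DUSP1-/- controls. It was at 290, 147 and 146 in DUSP1+/+ LPS arrays, against 42, 52 and 32 in DUSP1+/+ controls. Every DUSP1-/- LPS array lay above every DUSP1+/+ LPS array, and all LPS arrays lay above their controls. Mx2 rose by 3.98 ± 0.54 in DUSP1-/- spleen (adjusted p = 0.00109) and 2.16 ± 0.54 in DUSP1+/+ spleen (adjusted p = 0.038).

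**Figure D2:**
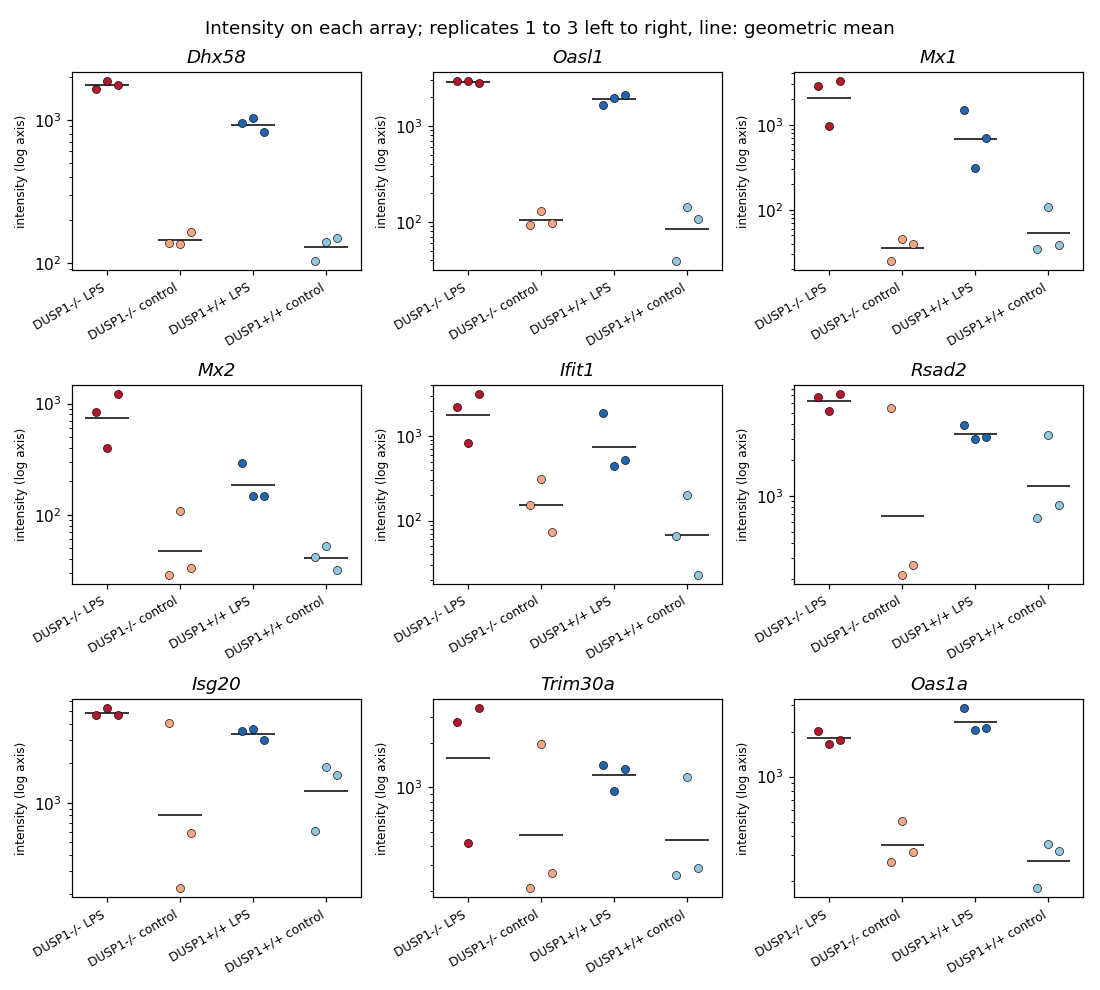
Intensity (log axis) of 9 genes on each array, by group, with replicates 1 to 3 from left to right and a line at the geometric mean of 3 mice. Dhx58 and Oasl1 replicates sit close together after LPS, Mx1, Mx2 and Ifit1 spread more, and Rsad2, Isg20 and Trim30a each have a control array as high as LPS arrays of their genotype or nearly so.

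In the ISG15 system, Usp18, the protease that removes ISG15 from proteins and dampens type I interferon receptor signalling, was at 2274, 1357 and 2500 in DUSP1-/- LPS arrays, against 213, 275 and 174 in DUSP1-/- controls. It was at 2556, 1977 and 1827 in DUSP1+/+ LPS arrays, against 97, 343 and 141 in DUSP1+/+ controls. The LPS arrays of the genotypes overlapped and all exceeded the controls, and Usp18 rose by 3.19 ± 0.42 in DUSP1-/- spleen (adjusted p = 0.000894) and 3.65 ± 0.42 in DUSP1+/+ spleen (adjusted p = 0.000746). Trim25, a ubiquitin ligase of the RNA sensing pathway, was at 1749, 1646 and 2396 in DUSP1-/- LPS arrays, against 798, 1975 and 1601 in DUSP1-/- controls. Its values were 1496, 1069 and 1040 in DUSP1+/+ LPS arrays, against 850, 1676 and 1685 in DUSP1+/+ controls. LPS and control arrays overlapped in both genotypes, with differences of 0.48 ± 0.37 in DUSP1-/- spleen (adjusted p = 0.482) and -0.18 ± 0.37 in DUSP1+/+ spleen (adjusted p = 0.886).

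Of the 5 transcription and PARP regulators, all rose in DUSP1-/- spleen and 4 in DUSP1+/+ spleen. Stat2, the interferon-activated transcription factor, was at 472, 315 and 531 in DUSP1-/- LPS arrays, against 103, 192 and 95 in DUSP1-/- controls. It was at 586, 451 and 477 in DUSP1+/+ LPS arrays, against 41, 155 and 201 in DUSP1+/+ controls. No LPS array overlapped the controls of its genotype, and Stat2 rose by 1.80 ± 0.51 in DUSP1-/- spleen (adjusted p = 0.0439) and 2.21 ± 0.51 in DUSP1+/+ spleen (adjusted p = 0.0291). The ADP-ribosyltransferase family members Parp9 and Parp14 rose by 2.41 and 2.13 in DUSP1-/- spleen and by 1.59 and 1.60 in DUSP1+/+ spleen. Ifi35 rose by 2.36 in DUSP1-/- spleen and 2.14 in DUSP1+/+ spleen.

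Sp100, a component of nuclear bodies, was at 439, 328 and 663 in DUSP1-/- LPS arrays, against 150, 122 and 174 in DUSP1-/- controls. It was at 484, 265 and 201 in DUSP1+/+ LPS arrays, against 246, 266 and 141 in DUSP1+/+ controls. The DUSP1-/- groups were apart and the DUSP1+/+ groups overlapped. Sp100 rose by 1.64 ± 0.37 in DUSP1-/- spleen (adjusted p = 0.016), and its difference in DUSP1+/+ spleen was 0.49 ± 0.37 (adjusted p = 0.57). The test between these responses gave 1.14 ± 0.53 (adjusted p = 0.924), so they were not shown to differ.

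The enzymes of nucleotides, RNA and DNA gave 3 rises of 5 in DUSP1-/- spleen and 1 of 5 in DUSP1+/+ spleen, and for several of them single control arrays were high. Rsad2, which encodes viperin, the enzyme that makes a chain-terminating nucleotide, was at 6815, 5199 and 7154 in DUSP1-/- LPS arrays, against 5507, 217 and 261 in DUSP1-/- controls. It was at 3947, 3019 and 3106 in DUSP1+/+ LPS arrays, against 652, 3230 and 834 in DUSP1+/+ controls. DUSP1-/- control 1 and DUSP1+/+ control 2 each reached LPS levels, so the groups overlapped in both genotypes. The differences of 3.22 ± 1.04 in DUSP1-/- spleen (adjusted p = 0.0694) and 1.47 ± 1.04 in DUSP1+/+ spleen (adjusted p = 0.537) did not pass.

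Isg20, an RNA exonuclease, was at 4673, 5309 and 4685 in DUSP1-/- LPS arrays, against 4033, 223 and 589 in DUSP1-/- controls. It was at 3535, 3633 and 2993 in DUSP1+/+ LPS arrays, against 612, 1863 and 1634 in DUSP1+/+ controls. The LPS arrays were above all controls of their genotype, but control arrays differed up to 18.1-fold, and neither 2.59 ± 0.82 in DUSP1-/- spleen (adjusted p = 0.066) nor 1.46 ± 0.82 in DUSP1+/+ spleen (adjusted p = 0.401) passed. Cmpk2, a mitochondrial nucleotide kinase, was at 1048, 971 and 1308 in DUSP1-/- LPS arrays, against 308, 46 and 63 in DUSP1-/- controls. It was at 457, 427 and 391 in DUSP1+/+ LPS arrays, against 67, 157 and 72 in DUSP1+/+ controls. Cmpk2 rose by 3.51 ± 0.59 in DUSP1-/- spleen (adjusted p = 0.00353), and its difference in DUSP1+/+ spleen, 2.22 ± 0.59, had an adjusted p of 0.0502.

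The control arrays with high Rsad2, Isg20 and Cmpk2 were those with the highest markers of red cell precursors. These markers averaged 11.2, 6.24 and 5.67 in DUSP1-/- controls 1, 2 and 3. They averaged 7.54, 10.2 and 8.33 in DUSP1+/+ controls 1, 2 and 3. The same control arrays also had the highest neutrophil markers of their groups. Neutrophil markers averaged 8.84, 7.65 and 7.47 in DUSP1-/- controls 1, 2 and 3, and 7.53, 9.05 and 7.56 in DUSP1+/+ controls 1, 2 and 3. Pancreas markers were also highest in DUSP1-/- control 1 of its group, at 11.8, against 5.08 and 8.88 in DUSP1-/- controls 2 and 3. In DUSP1+/+ controls pancreas markers were highest in control 1, at 12.9, and averaged 5.50 in control 2. Their part in the result was not tested. Without DUSP1-/- control 1 and DUSP1+/+ control 2, the LPS difference in DUSP1-/- spleen was 4.73 for Rsad2, 3.75 for Isg20 and 4.35 for Cmpk2, and all 3 were called (adjusted p = 3.99e-05, 0.00191 and 3.99e-05). In DUSP1+/+ spleen it was then 2.18 for Rsad2 and 2.61 for Cmpk2, both called (adjusted p = 0.00155 and 0.000506), and 1.75 for Isg20 (adjusted p = 0.0705). The calls of Rsad2 in both genotypes, Isg20 in DUSP1-/- spleen and Cmpk2 in DUSP1+/+ spleen were not made with all arrays. Leaving out these arrays was chosen after seeing the data. They hold the highest control values of these genes in their groups, so larger differences follow from the choice. No conclusion is drawn from these calls. Without the 3 control arrays with high pancreas markers, DUSP1-/- control 2 was the only DUSP1-/- control left. The DUSP1-/- difference was then 4.87 for Rsad2, 4.45 for Isg20 and 4.58 for Cmpk2. The DUSP1+/+ difference was 1.02 for Rsad2, 0.95 for Isg20 and 2.00 for Cmpk2. Without the 4 DUSP1-/- arrays with high lung markers, which leaves control 1 as the only DUSP1-/- control, the DUSP1-/- difference was -0.083 for Rsad2, 0.40 for Isg20 and 1.66 for Cmpk2, none of them called. Samhd1, which hydrolyses the building blocks of DNA, rose by 1.77 ± 0.44 in DUSP1-/- spleen (adjusted p = 0.0251), and its difference in DUSP1+/+ spleen was 1.23 ± 0.44 (adjusted p = 0.146). Of its 4 probe sets 3 were called in DUSP1-/- spleen, and the other, nearly as bright at a mean intensity of 1504 beside 1618, gave 0.26 ± 0.33 there (adjusted p = 0.707). Adar, which edits adenosine to inosine in double-stranded RNA, rose by 1.37 ± 0.35 in DUSP1-/- spleen and 1.58 ± 0.35 in DUSP1+/+ spleen.

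**Figure D3:**
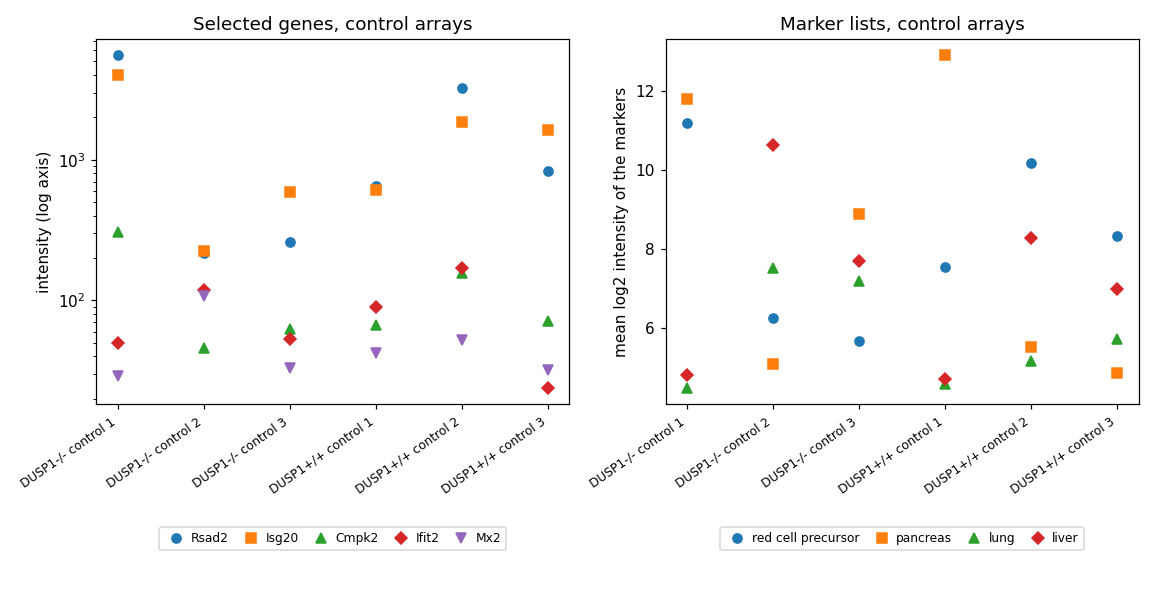
Left, intensity (log axis) of 5 genes on the 6 control arrays; right, mean log2 intensity of the marker lists of red cell precursors, pancreas, lung and liver on the same arrays. Rsad2 and Cmpk2 were highest in DUSP1-/- control 1 and DUSP1+/+ control 2, the arrays with red cell precursor means of 11.2 and 10.2. Mx2 was highest in DUSP1-/- control 2. Pancreas means were highest in DUSP1-/- control 1 (11.8) and DUSP1+/+ control 1 (12.9).

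Both membrane restriction factors rose in DUSP1-/- spleen and 1 in DUSP1+/+ spleen. Bst2, which encodes tetherin and holds budding virions at the cell surface, was at 1200, 1903 and 1169 in DUSP1-/- LPS arrays, against 379, 788 and 799 in DUSP1-/- controls. It was at 2055, 1741 and 1582 in DUSP1+/+ LPS arrays, against 311, 510 and 607 in DUSP1+/+ controls. LPS and control arrays were apart in both genotypes, and Bst2 rose by 1.16 ± 0.34 in DUSP1-/- spleen (adjusted p = 0.0491) and 1.96 ± 0.34 in DUSP1+/+ spleen (adjusted p = 0.00721). Ifitm3, which blocks fusion of virions with endosomes, was already bright in controls. It was at 5447, 6923 and 5086 in DUSP1-/- LPS arrays, against 2499, 780 and 2653 in DUSP1-/- controls. It was at 5322, 5685 and 5048 in DUSP1+/+ LPS arrays, against 2060, 2484 and 2396 in DUSP1+/+ controls. Ifitm3 rose by 1.74 ± 0.38 in DUSP1-/- spleen (adjusted p = 0.0141), and its difference in DUSP1+/+ spleen was 1.21 ± 0.38 (adjusted p = 0.0956).

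Neither TRIM protein of the last set passed. Trim30a, a mouse TRIM protein reported to restrain Toll-like receptor signalling, was at 2749, 419 and 3446 in DUSP1-/- LPS arrays, against 208, 1954 and 262 in DUSP1-/- controls. It was at 1408, 949 and 1339 in DUSP1+/+ LPS arrays, against 255, 1172 and 284 in DUSP1+/+ controls. DUSP1-/- LPS 2 was below DUSP1-/- control 2, and replicates differed up to 9.39-fold. The Trim30a differences were 1.74 ± 0.98 in DUSP1-/- spleen (adjusted p = 0.312) and 1.47 ± 0.98 in DUSP1+/+ spleen (adjusted p = 0.503). Trim21, a cytosolic antibody receptor, differed by 1.30 ± 0.47 in DUSP1-/- spleen (adjusted p = 0.106) and 0.76 ± 0.47 in DUSP1+/+ spleen (adjusted p = 0.461). Lgals3bp, a secreted glycoprotein that binds galectins, rose by 1.86 ± 0.25 in DUSP1-/- spleen and 1.55 ± 0.25 in DUSP1+/+ spleen. Ifi27l2a differed by 0.76 ± 0.33 in DUSP1-/- spleen (adjusted p = 0.177) and 0.88 ± 0.33 in DUSP1+/+ spleen (adjusted p = 0.163).

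**Figure D4:**
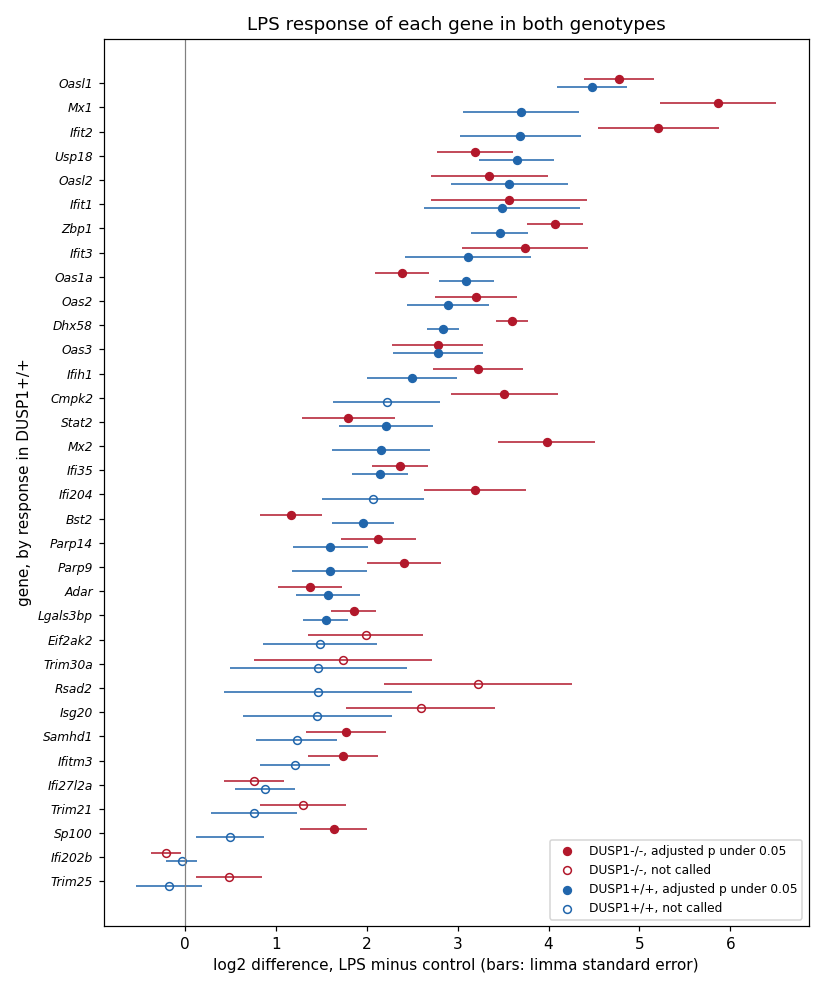
Log2 difference, LPS minus control, for each of the 34 genes in DUSP1-/- spleen (red) and DUSP1+/+ spleen (blue), ordered by the DUSP1+/+ value; bars are limma's standard error from 3 mice a group, and filled points had an adjusted p under 0.05. All called differences are to the right of 0, 26 in DUSP1-/- spleen and 21 in DUSP1+/+ spleen.

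Some of these calls were lost when a single array was left out, each of them with more than 1 choice of array. Of the 26 calls in DUSP1-/- spleen, 20 were made whichever array was left out, and the other 6 were Adar, Bst2, Ifit1, Samhd1, Sp100 and Stat2. Of the 21 calls in DUSP1+/+ spleen, 14 were made whichever array was left out, and the other 7 were Adar, Ifit1, Ifit3, Mx2, Parp9, Parp14 and Stat2. Leaving out the 4 DUSP1-/- arrays with a lung marker mean over 6 left 1 LPS and 1 control array in that genotype, and 4 genes, Dhx58, Mx2, Oasl1 and Zbp1, were then called. Cell markers also moved with LPS. Of all genes, 9.71% were called lower and 5.54% higher in DUSP1-/- spleen, and 4.16% lower and 3.93% higher in DUSP1+/+ spleen. An unadjusted limma p under 0.05 was found for 28.2% of all genes in DUSP1-/- spleen and 21.4% in DUSP1+/+ spleen. Markers of B cells, which averaged 8.09 to 8.35 in DUSP1-/- LPS arrays and 8.81 to 10.0 in DUSP1-/- controls, had 3 of 7 genes called lower after LPS in DUSP1-/- spleen. B cell markers averaged 8.46 to 9.15 in DUSP1+/+ LPS arrays and 9.62 to 9.85 in DUSP1+/+ controls, with 0 of 7 called and 4 of 7 at an unadjusted limma p under 0.05. T cell markers averaged 6.82 to 7.29 in DUSP1-/- LPS arrays and 7.28 to 8.84 in DUSP1-/- controls, and 6.72 to 7.49 in DUSP1+/+ LPS arrays and 8.18 to 8.65 in DUSP1+/+ controls. All 7 T cell markers had a negative difference in both genotypes, with 2 called lower in DUSP1-/- spleen (Cd3g and Cd5) and 1 in DUSP1+/+ spleen (Cd3g), where 6 of 7 had an unadjusted limma p under 0.05. Of 7 monocyte and macrophage markers, Cd14 was called higher and Csf1r lower in each genotype. The difference was negative for 5 and positive for 2 of the 7 in DUSP1-/- spleen. In DUSP1+/+ spleen it was negative for 6 and positive for 1. An unadjusted limma p under 0.05 was found for 4 of the 7 in DUSP1-/- spleen and 6 in DUSP1+/+ spleen. Of 4 plasmacytoid dendritic cell markers Spib was called lower in DUSP1-/- spleen. No neutrophil marker of 8 was called in either genotype, and 1 (12.5%) had an unadjusted limma p under 0.05, in DUSP1-/- spleen. Their part in the result was not tested.

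Between the genotypes after LPS, the list leaned higher in DUSP1-/- spleen without any gene passing the test. The difference was positive for 26 genes (52.9% of all genes), negative for 7 and 0 for Ifi202b, with a median of 0.59 against 0.02 over all genes. By limma, 0 of 34 genes were called, where 0.218% of all genes were called higher and 0.145% lower, and 5 of the 34 (14.7%) had an unadjusted p under 0.05, near the 10.2% of all genes. In the alternatives with other scalings, array weights or arrays left out, 0 to 13 were called, and the share of all genes called there was not counted. All 3 DUSP1-/- LPS arrays were above all 3 DUSP1+/+ LPS arrays for 10 genes (8.73% of all genes), namely Cmpk2, Dhx58, Ifih1, Ifit2, Isg20, Mx2, Oasl1, Rsad2, Trim25 and Zbp1. They were below for 1 gene, Oas1a (9.6% of all genes). Immune cell markers were not level in this comparison either, though 0 were called. The difference was positive for 6 of 7 monocyte and macrophage markers, 4 of 7 T cell markers and 2 of 7 B cell markers. It was positive for 1 of 8 neutrophil markers and 1 of 4 plasmacytoid dendritic cell markers. An unadjusted limma p under 0.05 was found for 2, 1, 2, 0 and 1 of these, in that order. Their part in the result was not tested.

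The largest difference after LPS was that of Mx2, whose arrays are given above. It averaged 738 in DUSP1-/- LPS arrays and 184 in DUSP1+/+ LPS arrays (geometric means, n = 3 each), a difference of 2.00 ± 0.54 with a 95% interval from 0.82 to 3.19 and an adjusted p of 0.204. Mx1 averaged 2077 in DUSP1-/- LPS arrays and 685 in DUSP1+/+ LPS arrays, a difference of 1.60 ± 0.64 (95% interval 0.19 to 3.01, adjusted p = 0.478). Further differences were 1.45 ± 0.67 for Ifit2, 1.37 ± 0.59 for Cmpk2, 1.26 ± 0.86 for Ifit1, 1.23 ± 0.49 for Ifih1 and 1.15 ± 0.69 for Ifit3, with adjusted p from 0.478 to 0.81. None of these differences passed the test with arrays weighted equally. With array weights all 7 passed. Adjusted p was then 0.00181 for Mx2, 0.0119 for Mx1, 0.0236 for Cmpk2 and 0.0261 for Ifit2. It was 0.0319 for Ifih1, 0.0396 for Ifit3 and 0.0467 for Ifit1. The weights also made the differences larger, such as 2.47 for Mx2, 2.31 for Mx1 and 2.00 for Ifit1. The share of all genes called with array weights was not counted.

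Dhx58 had the smallest adjusted p of the list in this comparison. It averaged 1750 in DUSP1-/- LPS arrays and 924 in DUSP1+/+ LPS arrays, a difference of 0.92 ± 0.18 (95% interval 0.53 to 1.31, adjusted p = 0.072, higher in 3 of 3 mice). The call depended on the setting: over 26 alternatives its adjusted p ran from 0.00309 to 0.33, and it passed in 6 of them. These were log2(intensity + 16), quantile normalization, cyclic loess normalization, array weights, leaving out the arrays with high pancreas markers, and leaving out DUSP1+/+ control 1 (adjusted p = 0.0489). The other probe sets of Dhx58 also gave positive differences, the smallest 0.33. Zbp1 differed by 0.61 ± 0.31 on the probe set used and by -0.17 on its other one.

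DUSP1-/- LPS arrays 1 and 3, the arrays with lung marker means of 7.42 and 6.59, were also the higher of their group for Mx1, Mx2, Ifit1, Ifit2 and Ifit3. In DUSP1-/- LPS 2 and the DUSP1+/+ LPS arrays the lung marker mean was 4.81 and 4.71 to 5.19. Their part in the result was not tested. Without the 4 arrays with a lung marker mean over 6, which leaves DUSP1-/- LPS 2 alone in its group, the difference after LPS was 1.10 for Mx2, 0.50 for Mx1 and 1.04 for Ifit2. It was 1.02 for Dhx58, 1.28 for Ifih1 and 1.19 for Cmpk2, and the median of the list was 0.30.

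**Figure D5:**
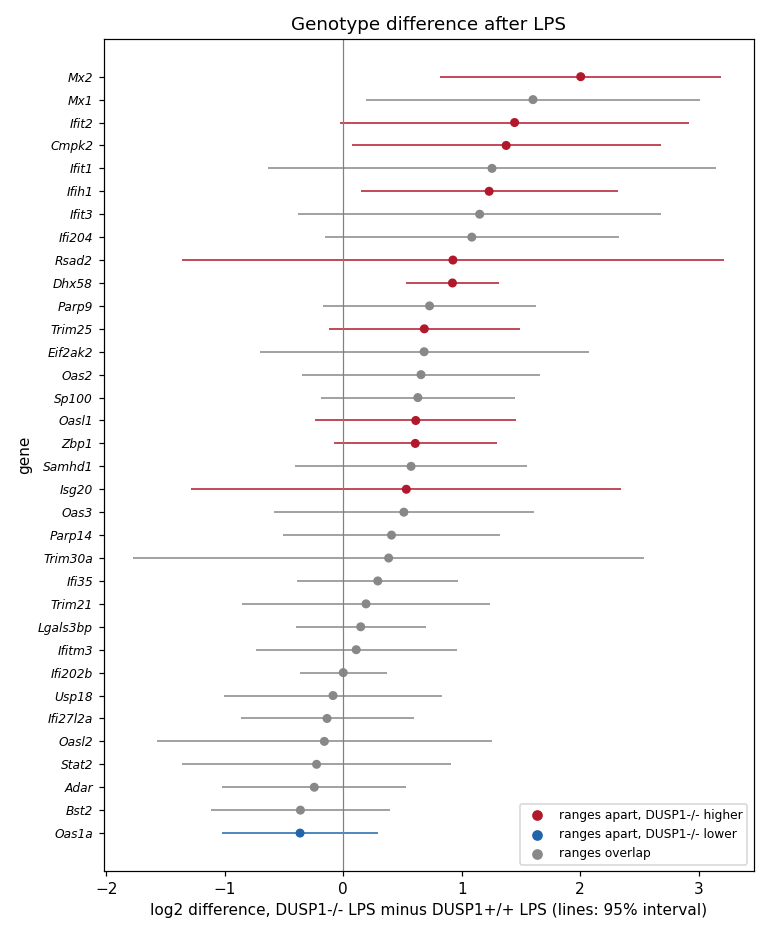
Log2 difference, DUSP1-/- LPS minus DUSP1+/+ LPS, for each of the 34 genes with its 95% interval from limma; colours mark genes whose 3 arrays of one genotype all lay above or below the 3 of the other. Mx2 is the largest at 2.00, Dhx58 has the narrowest interval of the coloured points, from 0.53 to 1.31, and Oas1a at -0.36 is the one gene with DUSP1-/- arrays all lower.

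For genes with a difference near 0 or below it after LPS, the intervals did not show equality. Usp18 averaged 1976 in DUSP1-/- LPS arrays and 2098 in DUSP1+/+ LPS arrays, and its interval ran from -1.004 to 0.832. Bst2 averaged 1387 in DUSP1-/- LPS arrays and 1782 in DUSP1+/+ LPS arrays, with an interval from -1.12 to 0.39. For Oas1a the interval ran from -1.03 to 0.30 around a difference of -0.36 (adjusted p = 0.87).

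In untreated spleen the genotypes gave no call. By limma, 0 of 34 genes were called (0% of all genes in either direction), and 0 had an unadjusted p under 0.05. The difference was positive for 21 genes (62.3% of all genes) and negative for 13, with a median of 0.06 against 0.07 over all genes, and for no gene were the control arrays of one genotype all above those of the other (1.53% of all genes higher and 0.952% lower in DUSP1-/- controls). Rsad2, with 5507 in 1 DUSP1-/- control and 3230 in 1 DUSP1+/+ control, had the lowest value, -0.83 ± 1.04. Ifit1 had the highest, 1.17 ± 0.86. Without the 3 control arrays with high pancreas markers, DUSP1-/- control 2 was the one DUSP1-/- control left, at 223 for Isg20 and 780 for Ifitm3, and these genes were then called lower by -2.97 and -1.65.

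The difference between the LPS responses, DUSP1-/- minus DUSP1+/+, was tested directly. It was positive for 25 genes (43.9% of all genes) and negative for 9, with a median of 0.53 against -0.05 over all genes. By limma 0 of 34 were called (0% of all genes), and 3 (8.82%) had an unadjusted p under 0.05, near the 6.46% of all genes. Those 3 were Mx1 at 2.17 ± 0.91 (95% interval 0.17 to 4.17, adjusted p = 0.893), Mx2 at 1.82 ± 0.76 (0.14 to 3.50, adjusted p = 0.893) and Dhx58 at 0.76 ± 0.25 (0.20 to 1.31, adjusted p = 0.729). Bst2 at -0.80 ± 0.48 and Oas1a at -0.71 ± 0.42 had the most negative values. Of the immune cell markers, 7 of 7 for monocytes and macrophages, 4 of 7 for T cells and 3 of 7 for B cells were positive. For neutrophils 1 of 8 was positive, and for plasmacytoid dendritic cells 1 of 4. The part of these markers in the result was not tested. Without DUSP1-/- control 1 and DUSP1+/+ control 2, the arrays with high red cell precursor markers, the median of the list was 0.13. Without the arrays with high pancreas markers Isg20 (3.50) and Ifitm3 (1.75) were called. This comparison shares arrays with those above and is not a separate line of evidence.

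The spread between mice of a group was wide for the list. The median SD of log2 intensity over 3 mice was 0.35 for the list and 0.23 for all genes in DUSP1-/- LPS arrays, and 0.65 and 0.36 in DUSP1-/- controls. It was 0.30 for the list and 0.25 for all genes in DUSP1+/+ LPS arrays, and 0.71 and 0.31 in DUSP1+/+ controls. Dhx58 was the steadiest of the responding genes, with a pooled SD of 0.19, and Rsad2 (1.46), Trim30a (1.37), Ifit1 (1.20) and Isg20 (1.15) varied most. These are descriptions, with no test.

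The variation was partly shared across the list. DUSP1+/+ LPS 1 was the highest of its group for 24 of 34 genes (70.6%, against 28.4% of all genes), and DUSP1-/- LPS 2 was the lowest of its group for 20 (58.8%, against 34.2% of all genes). DUSP1+/+ control 2 was the highest of its group for 20 genes (58.8%, against 20.4% of all genes). The median correlation between pairs of listed genes was 0.80 over the 12 arrays (561 pairs) and 0.23 after subtracting group means. Pairs share the arrays and the treatment, so these coefficients describe the arrays and carry no p.

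Genes that make and transmit the interferon signal formed a list of 27 measured genes. In DUSP1-/- spleen 5 rose (5.54% of all genes) and 4 fell (9.71% of all genes), with a median of 0.11, and in DUSP1+/+ spleen 5 rose (3.93% of all genes) and 0 fell (4.16% of all genes), with a median of 0.14. The interferon-γ gene Ifng was at 193, 115 and 260 in DUSP1-/- LPS arrays, against 18, 16 and 15 in DUSP1-/- controls. It was at 229, 160 and 438 in DUSP1+/+ LPS arrays, against 14, 13 and 12 in DUSP1+/+ controls. Ifng was thus near the floor of the arrays in all controls and above them on every LPS array of both genotypes. Irf7, the transcription factor that amplifies interferon production, was at 2658, 3187 and 2611 in DUSP1-/- LPS arrays, against 451, 438 and 401 in DUSP1-/- controls. It was at 3516, 2869 and 2731 in DUSP1+/+ LPS arrays, against 211, 478 and 378 in DUSP1+/+ controls. Irf7 rose by 2.71 ± 0.26 in DUSP1-/- spleen and 3.17 ± 0.26 in DUSP1+/+ spleen, and the LPS arrays of the genotypes overlapped.

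The signalling inhibitor Socs1 rose by 3.58 ± 0.46 in DUSP1-/- spleen and 4.02 ± 0.46 in DUSP1+/+ spleen. The interferon-β gene Ifnb1 was at 11 to 22 on all 12 arrays, near the lowest intensities measured, so its response cannot be read here. In DUSP1-/- spleen the genes called lower were Mavs, the mitochondrial adaptor of RNA sensing (-2.30 ± 0.37), Ptpn6, a phosphatase of immune cell signalling (-1.46 ± 0.31), Tyk2, a kinase of the type I interferon receptor (-1.19 ± 0.25), and Irf3, the transcription factor that starts interferon-β transcription (-1.05 ± 0.27). Mavs was at 50, 52 and 31 in DUSP1-/- LPS arrays, against 230, 188 and 222 in DUSP1-/- controls. It was at 95, 150 and 98 in DUSP1+/+ LPS arrays, against 123, 263 and 375 in DUSP1+/+ controls. DUSP1-/- LPS arrays were below DUSP1+/+ LPS arrays for Mavs, Ptpn6, Tyk2 and Irf3, by -1.37, -1.37, -0.95 and -0.78, with adjusted p of 0.214, 0.119, 0.197 and 0.382. Socs3, another signalling inhibitor, was at 2888, 3304 and 2578 in DUSP1-/- LPS arrays, against 1340, 1344 and 1249 in DUSP1+/+ LPS arrays. Socs3 was higher on every DUSP1-/- LPS array, by 1.15 ± 0.47 with an adjusted p of 0.486. By limma 0 of these 27 genes were called between genotypes after LPS, and 7 (25.9%) had an unadjusted p under 0.05, against 10.2% of all genes.

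Interferon-induced genes outside the list were counted the same way. Of 30 measured genes such as Rtp4, Tor3a, Parp12 and Daxx, 15 rose and 0 fell in DUSP1-/- spleen, against 5.54% and 9.71% of all genes. In DUSP1+/+ spleen 11 rose and 0 fell, against 3.93% and 4.16% of all genes. Parp12 rose by 3.51 ± 0.48 in DUSP1-/- spleen and 2.68 ± 0.48 in DUSP1+/+ spleen. Of 9 interferon-inducible GTPases, which act against vacuolar pathogens, 9 rose in DUSP1-/- spleen (5.54% of all genes) and 7 in DUSP1+/+ spleen (3.93% of all genes). Their median difference between genotypes after LPS was 0.12, with 5 positive and 4 negative, beside 0.59 for the antiviral list. For the 30 other interferon-induced genes the median was 0.21, with 23 positive and 7 negative, where 52.9% of all genes were positive. A test between these lists was not made.

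Among these GTPases Irgm2 ran against the lean of the antiviral list. It was at 635, 398 and 467 in DUSP1-/- LPS arrays, against 322, 293 and 282 in DUSP1-/- controls. It was at 918, 818 and 1076 in DUSP1+/+ LPS arrays, against 311, 267 and 322 in DUSP1+/+ controls. All DUSP1-/- LPS arrays were below all DUSP1+/+ LPS arrays, a difference of -0.93 ± 0.19 with an adjusted p of 0.091. Irgm2 rose by 0.72 ± 0.19 in DUSP1-/- spleen (adjusted p = 0.0348) and 1.64 ± 0.19 in DUSP1+/+ spleen (adjusted p = 0.000931).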

How the data were processed

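The deposited intensity values were made by the authors from scanned Affymetrix arrays with RMA in the R affy package, per the series' design text, and are whole numbers from 6 to 15228 on a linear scale; versions are not given in the sources used here. They were log2-transformed. The array has 22690 probe sets. Apart from 64 control sets, all of them (22626) entered a limma 3.58.1 model (R 4.3.3; lmFit, then eBayes) with a mean for each of the 4 groups. Tests were two-sided with Benjamini-Hochberg adjustment per contrast, and ± is limma's standard error. Of the list, 10 genes have several probe sets; the brightest was used. Some genes have near-identical relatives (Oas1a, Ifi204, Trim30a, Ifit3), and binding of their transcripts was not tested. With 3 mice a group, the number of arrays limits precision. Each p-value sets a difference against the spread between mice within the 4 groups, as moderated by limma over all probe sets.

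The list, gene lists and tests were chosen with earlier results of these data known. Any measured gene of the list could be named, with array values for the largest and smallest changes and for each role; called genes of other lists could be named, and Parp9, Mavs, Socs3, Ifnb1 and Irgm2 were described after their values were seen. Alternatives covered scaling, filters, probe sets, replicate block and arrays left out; leaving out arrays with high lung or red cell precursor markers was chosen after seeing the data. Deviations of same-numbered arrays from their group means had correlations of 0.14, 0.14 and 0.28 between DUSP1-/- and DUSP1+/+ controls. In the other group pairs correlations ran from -0.58 to 0.63. The block changed no call in controls. The fit was tested on simulated data.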

Additional observations from a re-analysis of the deposited data

How the results depend on the processing

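Over 26 alternatives the median log2 difference of the list kept its sign in both LPS responses and after LPS between genotypes. Moved values were the DUSP1+/+ LPS median without the 2 DUSP1+/+ controls with low Xist (2.49) and the median difference of responses without the arrays with high red cell precursor markers (0.13). The number of genes called between genotypes after LPS was 13 with array weights, for which the share of all genes called was not counted. It was 1 with log2(intensity + 16), quantile normalization, cyclic loess normalization, without the arrays with high pancreas markers (Dhx58 in each) and without those with high red cell precursor markers (Cmpk2). Without the arrays with high pancreas markers 2 genes were called in controls and 2 in the difference of responses. Without the arrays with high lung markers 4 genes were called in DUSP1-/- spleen, with 1 array left in each DUSP1-/- group; a lone array is assumed to vary like the other groups. The cause of the other changes was not tested.

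Leaving out single arrays, the genes called numbered 20 to 26 in DUSP1-/- spleen, 14 to 22 in DUSP1+/+ spleen, 0 to 1 between genotypes after LPS (1 without DUSP1+/+ control 1), and 0 in controls and in the difference of responses. Medians ran from 2.46 to 2.80 in DUSP1-/- spleen, 1.81 to 2.30 in DUSP1+/+ spleen, 0.43 to 0.68 between genotypes after LPS, -0.09 to 0.26 in controls and 0.26 to 0.75 for the difference of responses. In DUSP1-/- spleen the calls were lost for Adar and Samhd1 without any DUSP1-/- array (for Samhd1 except control 2), for Bst2 without any of 10 arrays, for Stat2 without any of 9, for Ifit1 without DUSP1-/- control 3 or LPS 1 or 3, and for Sp100 without DUSP1-/- control 2 or LPS 1 or 3, with adjusted p up to 0.0834, 0.0928, 0.149, 0.141, 0.0821 and 0.0684 in that order of genes. In DUSP1+/+ spleen they were lost for Adar and Stat2 without DUSP1+/+ control 2 or any DUSP1+/+ LPS array (up to 0.0876 and 0.104) and for Ifit3 without DUSP1+/+ control 1 or 3 or LPS 1 or 3 (0.067). Ifit1 lost its call without DUSP1+/+ control 1 or 3, any DUSP1+/+ LPS array or DUSP1-/- LPS 1 (0.0982), and Mx2 without any DUSP1+/+ array or DUSP1-/- LPS 1 (0.103). Parp9 and Parp14 lost theirs without any of 10 arrays (0.112 and 0.12).

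With a replicate block, 25 genes were called in DUSP1-/- spleen and 17 in DUSP1+/+ spleen, and 0 in the other 3 contrasts. The labels do not say whether mice with the same replicate number were paired. No difference called with all arrays at equal weight changed sign. In the LPS responses signs turned for Ifi202b in DUSP1+/+ spleen (0.0812 after median-centring, 0.0209 without the arrays with high pancreas markers, and -0.0996 to 0.0209 over single arrays left out, with 0.0209 without DUSP1+/+ control 1 and 0.0034 without DUSP1+/+ LPS 2) and in DUSP1-/- spleen (0.0076 after median-centring, 0 without the arrays with high lung markers). Trim25 in DUSP1+/+ spleen was 0.20 over the mean of its probe sets and 0.48 without the low-Xist controls. In DUSP1-/- spleen, without the arrays with high pancreas markers, Trim25 was -0.0531 and Trim30a -0.30, and Rsad2 was -0.083 without the arrays with high lung markers; Rsad2 was called higher there in 5 alternatives and Trim30a in 1 (array weights). Signs also turned in some alternative for 8 genes between genotypes after LPS, 31 in controls and 23 in the difference of responses. Among these Isg20 in controls was called at -2.97 without the arrays with high pancreas markers and reached 1.71 in another alternative, and Ifitm3 was called at -1.65 and reached 0.16. Results for single genes were also counted over the alternatives. The count took both LPS responses of all 34 genes, and selected genes between genotypes after LPS and in the difference of responses. Of these results, 1944 kept direction and side of the threshold, 163 lost a call, 60 gained one and 11 changed sign. No result in controls was in this count, so the 11 leave out the sign turns there. Signal near the floor limits Ifi202b, Ifnb1 and the controls of Ifng.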
